A study of Mus musculus with 8 samples.

Results

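The Toll-like receptor (TLR) genes measured here were Tlr1, Tlr2, Tlr3, Tlr4, Tlr5, Tlr6, Tlr7, Tlr8, Tlr9 and Tlr13. They were chosen by name as TLR family genes and not by a measured value, though with earlier results of these data known. They make up 10 of the 20308 genes in the count tables. RNA was sequenced from CD11b+ cells, which were pulled from the right brain hemisphere with magnetic beads in order to enrich microglia, the resident macrophages of the brain. There were 4 control mice (animals 1827, 1872, 1874 and 1934) and 4 CSF1 OE mice (animals 1931, 1932, 1936 and 2019), with 1 library per mouse. All 8 mice were F1 animals of C57Bl/6 and CD1 parents, aged 14 or 15 days after birth, and were perfused before the brain was taken. CSF1 OE mice carry a transgene for the secreted form of CSF1, a growth factor for microglia, which is driven through the TRE/tTA system in some of the GFAP+ cells. The transgene is thus not driven in the CD11b+ cells, and the labels do not say which of these transgenes, if any, the control mice carried. The Csf1 level, in CPM (gene counts scaled to 1 common library total), ranged from 139 to 364 in control and from 167 to 400.1 in CSF1 OE mice, so Csf1 in these cells does not check the genotype.

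TLRs are receptors of innate immunity that recognise conserved molecules of microbes and, in some cases, products of damaged cells. Tlr1, Tlr2, Tlr4, Tlr5 and Tlr6 encode receptors of the cell surface, whereas Tlr3, Tlr7, Tlr8, Tlr9 and Tlr13 encode receptors of endosomes that bind nucleic acids. Signals from nearly all of them pass through the adaptor MYD88 to NF-kB and to cytokine genes, and microglia are the main cells of the brain that carry the family. The comparison of the genotypes asks whether CSF1 OE changes these receptors in CD11b+ cells, and whether the surface and endosomal receptors differ in this.

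Library totals were between 12908144 and 15475465 counts in control and between 12053259 and 14356532 counts in CSF1 OE mice. CPM values are counts per 10 to the power of 6 counts, on TMM-scaled library totals, and all 10 receptor genes passed the filter on low counts together with 13397 other genes. The level summed over 10 microglia markers lay between 22789 and 39742 CPM for the control and between 29148 and 40936 CPM for the CSF1 OE libraries, and all 10 were detected in every library. Markers of other cells were present at lower levels. The 7 oligodendrocyte markers summed to between 2385 and 5134 CPM for control and between 1278 and 4200 CPM for CSF1 OE. The 6 astrocyte markers summed to between 362 and 669 CPM and between 309 and 701 CPM, respectively. The 6 neuron markers summed to between 55.7 and 256 CPM and between 31.2 and 139 CPM. The 5 neutrophil markers measured summed to between 38.5 and 89.6 CPM and between 12.7 and 192 CPM, highest in mouse 2019. The 9 markers of border macrophages summed to between 1588 and 2517 CPM for control and between 1279 and 1916 CPM for CSF1 OE. The 5 monocyte markers in the tables summed to between 521 and 895 CPM and between 251 and 577 CPM, and the 6 endothelial markers to between 514 and 823 CPM and between 256 and 592 CPM, respectively. Markers of T and NK cells were close to 0 in all mice, with sums from 0.269 to 0.983 CPM for control and from 1.18 to 2.05 CPM for CSF1 OE, and Cd3e was at 0 in 7 of 8 libraries.

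Of the 10 receptor genes, Tlr2 and Tlr5 were the ones whose genotypes did not overlap, and they lay in opposite directions. Among all genes tested, 6.84% did not overlap with CSF1 OE higher and 3.45% with CSF1 OE lower. The sequences just upstream of Tlr2 and Tlr5 are shown because the receptors that the results turn on can be set beside the transcription factor motifs they hold. Sequences are from RefSeq promoters of GRCm38.p6, are written 5′ to 3′ on the strand of the gene, and end before the earliest annotated start of the gene. Capitals mark a match to the NF-kB motif, which was searched on both strands as the letters GGGA and CC with any 4 bases between them.
Tlr2, chr3:83841768-83841858, minus strand: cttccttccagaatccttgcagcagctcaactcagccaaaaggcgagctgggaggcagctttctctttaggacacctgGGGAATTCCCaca
Tlr5, chr1:182954538-182954787, plus strand: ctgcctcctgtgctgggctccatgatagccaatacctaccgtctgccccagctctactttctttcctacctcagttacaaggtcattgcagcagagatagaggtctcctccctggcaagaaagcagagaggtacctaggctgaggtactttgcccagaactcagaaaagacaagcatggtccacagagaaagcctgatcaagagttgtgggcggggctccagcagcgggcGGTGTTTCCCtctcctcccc
Promoter windows of 250 bases before and 50 bases after the start were found for 8 of the 10 receptor genes, as 10 windows in all. The NF-kB motif was in 3 of the 10 windows, those of Tlr2, Tlr3 and Tlr5, and in 20.73% of 32851 windows of all genes. The motif GAGGAA, bound by the macrophage factor PU.1, was in 4 of the 10 windows, those of Tlr1, Tlr8, Tlr9 and Tlr13, and in 28.28% of all windows. The motif of interferon-stimulated genes, GAAA and GAAA with any 2 bases between them, was in 1 window, that of Tlr6, and in 3.44% of all windows, and the AP-1 motif TGANTCA was in 1 window, that of Tlr9, and in 7.81% of all windows. No promoter window was found for Tlr4 and Tlr7. A motif match describes these letters and does not show that a factor binds there.

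Tlr2 encodes the surface receptor for bacterial lipoproteins, which it binds as a pair with TLR1 or TLR6. The gene lies on the minus strand of chromosome 3 between positions 83836272 and 83841767 (GRCm38). Tlr2 was measured at 299, 269, 245 and 214 CPM in control mice 1827, 1872, 1874 and 1934, and at 583, 361, 430.5 and 449 CPM in CSF1 OE mice 1931, 1932, 1936 and 2019. Every CSF1 OE mouse was above every control mouse, as was the case in this direction for 6.84% of all genes tested. Control mice had a mean of 257 ± 36.1 CPM (SD, n = 4), and CSF1 OE mice of 456 ± 92.8 CPM (SD, n = 4), a 1.78-fold difference with a 95% interval from 1.38 to 2.29. Tlr2 nonetheless missed the threshold of an adjusted p-value of 0.05 in edgeR's quasi-likelihood test (log2 fold change 0.83, SE 0.16, adjusted p = 0.0558). In this test 0.440% of all genes were called, where a call also needed a fold change under 0.7 or over 1.43. The study itself, which used another test, EBSeq, on these mice, named Tlr2 among its differentially expressed genes. These are bulk libraries, in which a change in the share of a cell type and a change in RNA per cell cannot be told apart.

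Other fits of the same counts placed Tlr2 past the threshold. DESeq2 called it at an adjusted p of 9.92e-05, where 3.10% of all genes were called by that tool. The edgeR test with an added term for mice numbered 1931 to 1936, of which 1934 was the single control mouse, called it at an adjusted p of 0.0267 and a log2 fold change of 0.91, where 9.50% of all genes were called. When each mouse was left out in turn, the log2 fold change of Tlr2 was between 0.69 and 0.93 and the adjusted p in edgeR between 0.0523 and 0.186.

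Tlr1 and Tlr6 encode the partners of TLR2 for triacylated and diacylated lipoproteins. The genes are neighbours on the minus strand of chromosome 5, from 64924679 to 64933563 for Tlr1 and from 64952031 to 64960097 for Tlr6, with 18467 bases between them. Tlr1 was measured at 54.4, 66.9, 73.3 and 41.6 CPM in the control mice and at 78.4, 50.04, 60.6 and 91.2 CPM in the CSF1 OE mice, in the order used for Tlr2. Tlr6 was measured at 34.7, 39.4, 47.5 and 27.9 CPM and at 57.2, 30.0, 42.0 and 67.9 CPM, respectively. Within each genotype both genes had the same order of mice, with 1934 and 1932 the lowest and 1874 and 2019 the highest of their genotypes, and the genotypes overlapped for both. The log2 fold change was 0.25 for Tlr1 (SE 0.22, adjusted p = 0.607 in edgeR) and 0.40 for Tlr6 (SE 0.25, adjusted p = 0.464 in edgeR). The interval of the fold, from 0.839 to 1.68 for Tlr1 and from 0.885 to 1.96 for Tlr6, contains no difference for both genes, and contains the 1.78-fold difference of Tlr2 for Tlr6.

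The counts of Tlr1, Tlr2 and Tlr6 were not whole numbers in any of the 8 libraries, and those of Tlr7 and Tlr13 were not whole in 7 and those of Tlr4 in 3. Such counts arise where reads that match more than 1 gene are divided, and which genes shared these reads is not known from the tables. The counts of Tlr3, Tlr5, Tlr8 and Tlr9 were whole in all 8 libraries. The ratio of Tlr1 to Tlr6 within a mouse, in CPM, was between 1.49 and 1.70 in control and between 1.34 and 1.67 in CSF1 OE mice. The ratio of Tlr2 to Tlr1 was between 3.34 and 5.49 in control and between 4.93 and 7.44 in CSF1 OE mice, and the genotypes overlapped because of mouse 2019. The ratio of Tlr2 to Tlr6 was between 5.16 and 8.60 in control and between 6.61 and 12.1 in CSF1 OE mice, with the same mouse lowest.

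Tlr4 encodes the receptor for bacterial lipopolysaccharide and lies on the plus strand of chromosome 4 from 66827584 to 66930284. It was measured at 94.8, 108, 101.5 and 67.4 CPM in the control mice and at 74.4, 77.2, 46.2 and 114 CPM in the CSF1 OE mice. The highest value and the lowest value of Tlr4 were both in CSF1 OE mice, 2019 and 1936. The log2 fold change was -0.25 (SE 0.25, adjusted p = 0.644 in edgeR), with an interval of the fold from 0.564 to 1.24.

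Tlr5 encodes the receptor for bacterial flagellin and lies on the plus strand of chromosome 1 from 182954788 to 182976044. It was measured at 35.3, 41.0, 49.4 and 27.4 CPM in the control mice and at 19.9, 14.8, 15.1 and 23.9 CPM in the CSF1 OE mice. Every CSF1 OE mouse was below every control mouse, as was the case in this direction for 3.45% of all genes tested. Control mice had a mean of 38.3 ± 9.30 CPM (SD, n = 4), and CSF1 OE mice of 18.4 ± 4.33 CPM (SD, n = 4), with a fold of 0.481 and a 95% interval from 0.343 to 0.672. Like Tlr2, Tlr5 missed the threshold in edgeR (log2 fold change -1.06, SE 0.21, adjusted p = 0.0600). It was called by DESeq2 (adjusted p = 0.000346) and by edgeR with the term for mice 1931 to 1936, where its log2 fold change was -0.77 (adjusted p = 0.0279). When each mouse was left out in turn, the log2 fold change was between -1.21 and -0.90 and the adjusted p in edgeR between 0.0558 and 0.195.

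The ratio of Tlr2 RNA to Tlr5 RNA was higher in the CSF1 OE mice. The ratio of Tlr2 to Tlr5 in CPM was between 4.96 and 8.45 in control and between 18.8 and 29.3 in CSF1 OE mice, a mean log2 difference of 1.87. This ratio was chosen after the values of both genes were seen and is a description. Every CSF1 OE mouse was above the control mice for Tlr2 and below them for Tlr5. The separation of the ratio was thus fixed in advance.

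**Figure D1:**
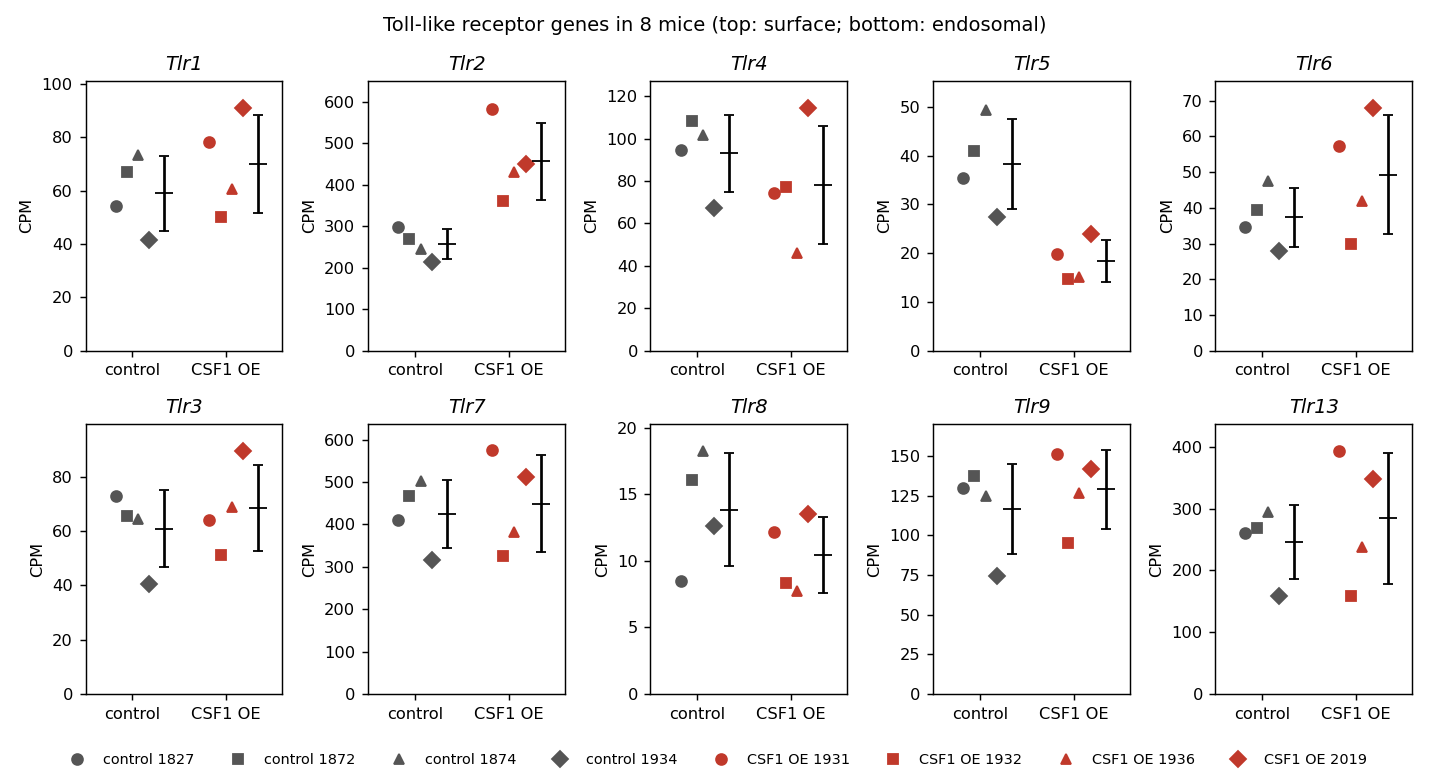
CPM of the 10 TLR genes in each of the 8 mice, with surface receptors in the top row and endosomal receptors in the bottom row. Symbols stand for single mice, and horizontal lines with bars show the mean and SD of each genotype (n = 4). The genotypes are separated for Tlr2, from 214 to 299 CPM in control against 361 to 583 CPM in CSF1 OE mice, and for Tlr5, and overlap for the other 8 genes.

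Endosomal receptors bind RNA or DNA that reaches the endosome. Tlr3 encodes the receptor for double-stranded RNA and lies on the minus strand of chromosome 8 from 45395665 to 45411080. It was measured at 72.8, 65.6, 64.6 and 40.3 CPM in the control mice and at 64.2, 51.2, 68.8 and 89.6 CPM in the CSF1 OE mice. The genotypes overlapped, with a log2 fold change of 0.17 (SE 0.21, adjusted p = 0.714 in edgeR). The exons of Tlr3 overlap those of an antisense gene, Gm45542, by 381 bases, and the library kit does not mark strand.

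Tlr7 and Tlr8 encode receptors for single-stranded RNA and its breakdown products and are neighbours on the minus strand of chromosome X, with 40599 bases between them. Tlr8 lies from 167242696 to 167264329 and Tlr7 from 167304929 to 167330558. Tlr7 was measured at 411, 468, 502 and 316 CPM in the control mice and at 576, 325, 383 and 511 CPM in the CSF1 OE mice. Tlr8 was measured at 8.47, 16.0, 18.2 and 12.6 CPM and at 12.2, 8.30, 7.70 and 13.5 CPM, respectively. The genotypes overlapped for both. The log2 fold change was 0.08 for Tlr7 (SE 0.21, adjusted p = 0.860 in edgeR) and -0.41 for Tlr8 (SE 0.27, adjusted p = 0.482 in edgeR). The ratio of Tlr7 to Tlr8 in CPM was between 25.1 and 48.6 in control and between 37.8 and 49.8 in CSF1 OE mice.

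Tlr9 encodes the receptor for DNA with unmethylated CpG and lies on the plus strand of chromosome 9 from 106222598 to 106226883. It was measured at 130, 137, 125 and 74.6 CPM in the control mice and at 151, 95.3, 127 and 142 CPM in the CSF1 OE mice (log2 fold change 0.14, SE 0.21, adjusted p = 0.749 in edgeR). Tlr13 encodes a receptor for bacterial ribosomal RNA and lies on the plus strand of chromosome X from 106143204 to 106160493. It was measured at 261, 269, 295 and 159 CPM in the control mice and at 393, 159, 238 and 349 CPM in the CSF1 OE mice (log2 fold change 0.21, SE 0.29, adjusted p = 0.742 in edgeR). The lowest control mouse, 1934, and the lowest CSF1 OE mouse, 1932, had almost the same Tlr13 level.

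None of the 10 receptor genes was called by edgeR, and 2 of 10 had an unadjusted p under 0.05 in that test, 1 in each direction, against 16.5% of all genes tested. DESeq2 called 2 of the 10, Tlr2 and Tlr5, against 3.10% of all genes. The median log2 fold change of the 10 receptors was 0.16, and that of all genes tested was -0.03. The intervals of all 5 endosomal receptors contain no difference, and their bounds together reach from 0.491 to 1.82 times the control level. The 1.78-fold difference of Tlr2 lay within the interval of Tlr13 and above those of the other 4.

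**Figure D2:**
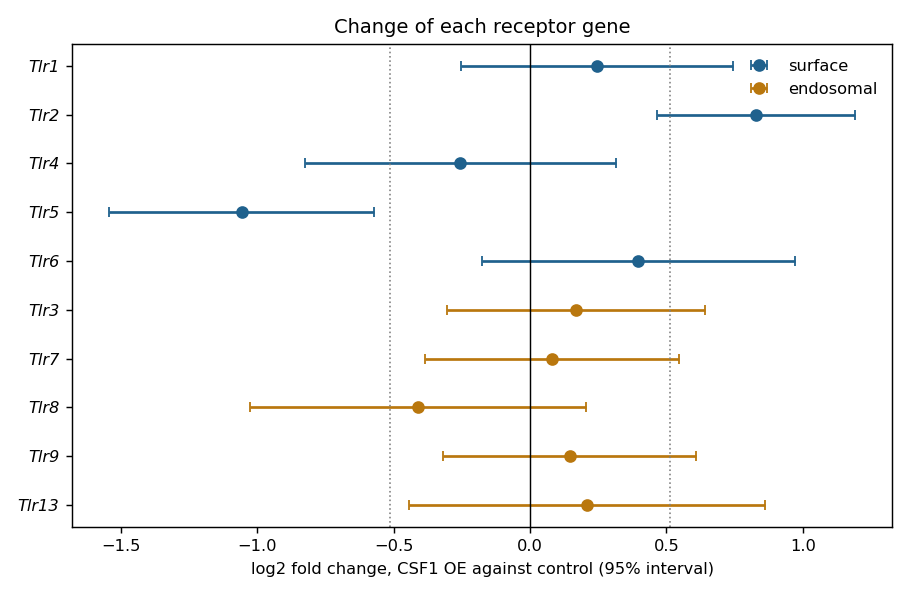
Log2 fold change of each TLR gene in CSF1 OE against control mice from edgeR, with its 95% interval as a horizontal bar and surface and endosomal receptors in different colours. Dotted lines mark folds of 0.7 and 1.43. Tlr2 at 0.83 and Tlr5 at -1.06 are the genes whose intervals do not contain 0.

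The surface receptors were more spread out in their differences than the endosomal receptors because of Tlr2 and Tlr5. The other surface receptors, Tlr1, Tlr4 and Tlr6, had log2 fold changes from -0.25 to 0.40. Log2 fold changes of the 5 surface receptors ran from -1.06 to 0.83 with a median of 0.25, and 3 of 5 were positive. Those of the 5 endosomal receptors ran from -0.41 to 0.21 with a median of 0.14, and 4 of 5 were positive. Without control mouse 1934 the endosomal median was -0.0059. The medians differed by 0.10, which is less than the spread of this difference between mice of a genotype (SD 0.139). The median log2 level of the surface receptors itself varied between mice of a genotype with an SD of 0.369, and that of the endosomal receptors with an SD of 0.365.

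Levels were compared between genes as CPM per kilobase of merged exons. In control mice Tlr7 had the highest level at 104 ± 19.9, followed by Tlr2 at 85.1 ± 11.98, Tlr13 at 57.1 ± 13.9 and Tlr9 at 33.5 ± 8.18 CPM per kilobase (SD, n = 4). Tlr1 at 17.7 ± 4.20, Tlr4 at 16.7 ± 3.24, Tlr3 at 11.7 ± 2.72 and Tlr6 at 10.03 ± 2.21 CPM per kilobase formed a middle group, and Tlr5 at 7.99 ± 1.94 and Tlr8 at 3.86 ± 1.19 CPM per kilobase were the lowest. Thus 3 of the 4 highest receptor genes of these cells encode endosomal receptors.

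Neighbours in this order often lay within their spread. Among the control mice the ranges of neighbouring genes were separate for Tlr2 against Tlr13 and for Tlr5 against Tlr8, and overlapped for the other 7 pairs. Within single mice the order was firmer. Tlr2 was above Tlr13, Tlr13 above Tlr9, Tlr9 above Tlr1, Tlr6 above Tlr5 and Tlr5 above Tlr8 in 8 of 8 mice, whereas Tlr3 was above Tlr6 in 5 of 8. Tlr7 was above Tlr2 in 4 of 4 control mice and in 0 of 4 CSF1 OE mice, in which Tlr2 reached 151 ± 30.8 and Tlr7 110 ± 28.2 CPM per kilobase (SD, n = 4). In control mouse 1827 the levels were nearly equal, with Tlr7 at 100.8 and Tlr2 at 99.1 CPM per kilobase.

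The 5 surface receptors summed to 138 ± 19.4 CPM per kilobase in control and 203 ± 39.6 in CSF1 OE mice (SD, n = 4), and the genotypes did not overlap. The 5 endosomal receptors summed to 210 ± 43.8 and 229 ± 62.1 CPM per kilobase (SD, n = 4), and overlapped. The surface receptors held between 37.1% and 42.5% of the total of all 10 in control and between 45.1% and 50.6% in CSF1 OE mice. Tlr2 alone made up between 56.2% and 66.5% of the surface sum in control and between 67.7% and 77.8% in CSF1 OE mice. Without Tlr2 the surface sum was 52.4 ± 11.2 CPM per kilobase in control and 52.0 ± 14.7 in CSF1 OE mice (SD, n = 4). Without Tlr2 the genotypes thus differed by less than the spread between mice, and Tlr5 was a small part of the sum. Tlr7 made up 49.7% ± 2.41 of the endosomal sum in control and 48.2% ± 2.04 in CSF1 OE mice (SD, n = 4).

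**Figure D3:**
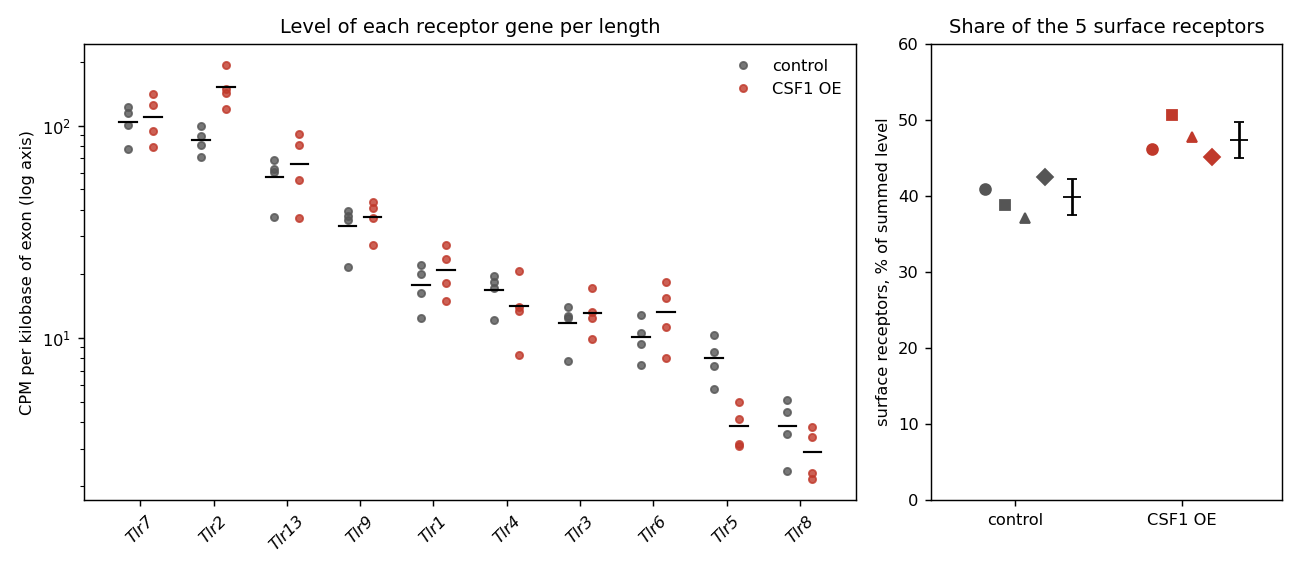
Left, level of each TLR gene in CPM per kilobase of exon on a log axis, with 1 point per mouse and a line at the mean of the 4 mice, ordered by the control mean. Right, share of the summed level held by the 5 surface receptors in each mouse, with mean and SD (n = 4). Tlr7 is highest in control and Tlr2 in CSF1 OE mice, and the share of surface receptors is 37.1% to 42.5% in control and 45.1% to 50.6% in CSF1 OE mice.

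The receptors varied together between mice of a genotype. Control mouse 1934 had the lowest level of 9 of 10 receptors among the control mice, with a median log2 difference from the others of -0.59. CSF1 OE mouse 1932 had the lowest level of 8 of 10 among the CSF1 OE mice, with a median log2 difference of -0.54. Mouse 1934 also had the lowest sum of microglia markers, at 22789 CPM, and the highest sum of oligodendrocyte, endothelial, monocyte and neuron markers of all 8 mice. The sum of microglia markers in mouse 1932 was 29617 CPM, the second lowest of the CSF1 OE mice.

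The levels were therefore also set against the 10 microglia markers, a choice made after the data had been seen. Of the 10, 1, Fcrls, was called by DESeq2 with a negative value (3.10% of all genes), and 0 were called by edgeR (0.440% of all genes). Per 1000 counts of these markers, Tlr2 had between 6.77 and 9.37 counts in control and between 10.97 and 17.7 in CSF1 OE mice. Tlr5 had between 0.900 and 1.42 counts in control and between 0.499 and 0.604 in CSF1 OE mice. Both genes remained separate between the genotypes on this scale, and the other 8 receptors overlapped. Tlr9 kept a narrow range among the control mice, between 3.28 and 3.59 counts per 1000, as did Tlr3, between 1.65 and 1.86. An edgeR test was also made with libraries scaled to the geometric mean of the 10 marker counts rather than to their sum. In that test no gene was called and 763 had an unadjusted p under 0.05. The log2 fold change there was 0.91 for Tlr2 and -0.99 for Tlr5 (adjusted p = 0.149 for both in edgeR).

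All 9 markers of border macrophages had a negative log2 fold change, as Tlr5 had, with a median of -0.47, and their summed levels overlapped between the genotypes. Of the 9, 5 had an unadjusted p under 0.05 (16.5% of all genes), 0 were called by edgeR (0.440% of all genes), and 1, Cd163, was called by DESeq2 (3.10% of all genes). With the term for mice 1931 to 1936, which called Tlr5, 0 of the 9 were called. All 6 endothelial markers had negative log2 fold changes, with a median of -0.68, and 2 had an unadjusted p under 0.05. Of these 6, 0 were called by edgeR, 1, Ly6c1, by DESeq2, and 5, Cdh5, Cldn5, Flt1, Ly6c1 and Slco1a4, with the term for mice 1931 to 1936 (9.50% of all genes), all negative. That fit also called 3 of 7 oligodendrocyte markers, 2 of 6 neuron markers, 1 of 6 astrocyte markers and 1 of 5 monocyte markers, all negative. DESeq2 called 1 of the 5 monocyte markers, Plac8, with a positive value. The other 4 monocyte markers had negative log2 fold changes in the main test, and the median of the list was -0.57. The part of these cells in the Tlr5 level was not tested.

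Animal numbers were not balanced between the genotypes, as numbers 1931 to 1936 held 1 control mouse and 3 CSF1 OE mice. Among these 4 mice the log2 difference was 1.07 for Tlr2 and -0.73 for Tlr5. Among the other 4 mice, 3 control and 1 CSF1 OE, it was 0.73 for Tlr2 and -0.79 for Tlr5. Each set has a genotype with 1 mouse, and the direction for Tlr2 and Tlr5 is fixed by the lack of overlap over all 8 mice. Tlr4 was -0.07 in the first and 0.17 in the second set, and Tlr8 was -0.45 and 0.00. The other 6 receptors were positive in both sets, from 0.12 for Tlr9 in the second to 0.75 for Tlr6 in the second. The labels do not say what the animal numbers stand for.

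The genes most like Tlr2 across the 8 libraries were Hebp1, Shisa5 and Dctd. Likeness was the root mean square difference of log2 CPM after centring each gene on its mean, which was 0.133, 0.135 and 0.144 for these genes against a median of 0.513 over all other genes. For Tlr5 they were Tmem8 at 0.174, Zfp773 at 0.203 and Mgl2, a lectin gene of macrophages and dendritic cells, at 0.210, against a median of 0.653.

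Genes that act with the receptors were taken from 8 lists of 94 gene symbols, of which 86 were tested. No gene of these lists was called by edgeR, and 6 of 86 were called by DESeq2 against 3.10% of all genes, namely Ctss, Cxcl10, Il1a, Irf7, Tnf and, with a negative value, Sigirr. With the term for mice 1931 to 1936, edgeR called 11 of 86 against 9.50% of all genes, of which 9 were positive, and Ctss, Il1a, Irf7, Tnf and Sigirr were called there too. The others called with that term were Ccl5, Irak4, Ly86, Ticam2, Tlr12 and, with a negative value, Lbp. At an unadjusted p under 0.05 there were 16 with a positive and 4 with a negative log2 fold change, against 16.5% of all genes in either direction, and the median over the 86 genes was 0.11. The genes named for each list are those with the highest and the lowest log2 fold change. A few others, named for their role, were chosen after their values were seen.

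Of the remaining receptor genes, Tlr12 was at 15.7 ± 3.68 CPM in control (SD, n = 4) and at 19.0 ± 2.31 CPM in CSF1 OE mice (SD, n = 4), and Tlr11 had too few counts to be tested. Tlr12 was called with the term for mice 1931 to 1936, and not by DESeq2 or the main test. Co-receptors of surface TLRs, listed together with RP105 and its partner, had a median log2 fold change of 0.08 over 6 genes. Ly86, which encodes the partner of RP105, was at 0.43 (adjusted p = 0.374 in edgeR). Lbp, the lipopolysaccharide-binding protein, was at -0.66 (SE 0.24, adjusted p = 0.221 in edgeR). Cd14, the co-receptor of TLR4, ranged from 157 to 353 CPM in control and from 109 to 512 CPM in CSF1 OE mice.

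Proteins that carry endosomal receptors to their compartment and cleave them were at a median of 0.14 over 11 tested genes. Unc93b1, the chaperone of the endosomal receptors, was at 891 ± 203 CPM in control (SD, n = 4) and at 982 ± 108 CPM in CSF1 OE mice (SD, n = 4). Ctss, a lysosomal protease that can cleave these receptors, was measured at 2178, 2252, 1753 and 1230 CPM in the control mice and at 3057, 2487, 2883 and 4227 CPM in the CSF1 OE mice. The genotypes of Ctss did not overlap (log2 fold change 0.77, SE 0.23, adjusted p = 0.161 in edgeR), whereas Ctsk, another protease, was at -0.48 and overlapped.

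Adaptors of the receptors were at a median of 0.21 over 6 genes. Ticam1, the adaptor of TLR3, had the highest log2 fold change at 0.36 and Tirap, a bridging adaptor of TLR2 and TLR4, the lowest at -0.15, and Myd88 was at 0.27 (adjusted p = 0.604 in edgeR). Kinases and ubiquitin ligases just downstream were at a median of 0.08 over 19 genes, and the lowest was Tab1, a partner of the kinase TAK1, at -0.06. Map3k8, a kinase that couples TLRs to ERK, was at 72.9, 75.2, 69.6 and 78.3 CPM in the control mice and at 100.3, 89.3, 108 and 93.3 CPM in the CSF1 OE mice. Its genotypes did not overlap, and it missed the threshold (log2 fold change 0.40, SE 0.08, adjusted p = 0.0589 in edgeR).

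Transcription factors at the end of the pathway were at a median of 0.11 over 12 genes. Irf7, which drives type I interferon genes after TLR7 and TLR9 signals, was at 8.60, 3.73, 5.82 and 4.61 CPM in the control mice and at 15.6, 22.5, 37.4 and 13.1 CPM in the CSF1 OE mice. The genotypes of Irf7 did not overlap (log2 fold change 1.96, SE 0.38, adjusted p = 0.0558 in edgeR). Fos, a subunit of AP-1, had the lowest log2 fold change of this list at -0.45 (adjusted p = 0.474 in edgeR).

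Negative regulators were at a median of 0.10 over 18 tested genes. Sigirr, a receptor-like inhibitor of TLR signals, was at 6.31 ± 1.06 CPM in control (SD, n = 4) and at 3.76 ± 0.316 CPM in CSF1 OE mice (SD, n = 4), with every CSF1 OE mouse below every control mouse (log2 fold change -0.75, SE 0.19, adjusted p = 0.104 in edgeR). Lgals3, which encodes galectin-3, had the highest log2 fold change of this list at 1.10 (adjusted p = 0.186 in edgeR).

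Cytokine genes that TLRs induce had a median of -0.03, with 6 positive and 7 negative log2 fold changes among 13 tested genes. At an unadjusted p under 0.05 there were 5 positive and 1 negative, against 16.5% of all genes in either direction. Ccl5, a chemokine, was at 0.439 ± 0.248 CPM in control (SD, n = 4) and at 2.44 ± 1.11 CPM in CSF1 OE mice (SD, n = 4) without overlap (log2 fold change 2.43, SE 0.54, adjusted p = 0.0753 in edgeR). Ccl5 is also made by T and NK cells. The sum of their markers did not overlap between the genotypes either, at the levels near 0 given above. Of these markers only Klrb1c had enough counts to be tested and was separate, whereas Cd3d, Cd3e and Cd3g overlapped. The part of these cells in the Ccl5 level was not tested. Tnf was at 113 ± 29.2 and 281 ± 107 CPM (SD, n = 4) and overlapped (log2 fold change 1.32, adjusted p = 0.0902 in edgeR). Il10, which encodes an anti-inflammatory cytokine, had the lowest log2 fold change at -1.14 (adjusted p = 0.255 in edgeR).

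**Figure D4:**
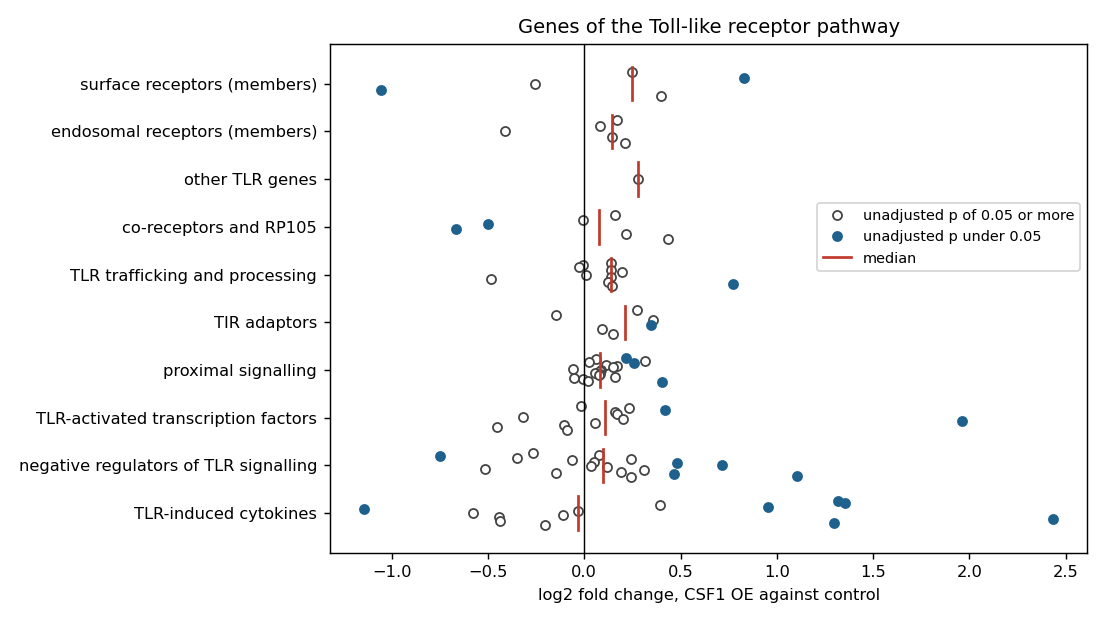
Log2 fold change in CSF1 OE against control mice of each tested gene of the TLR pathway, with 1 row per list. Filled points have an unadjusted p under 0.05 in edgeR, open points do not, and red lines mark the median of each list. Medians lie between -0.03 and 0.28, and the widest rows are those of the transcription factors, with Irf7 at 1.96, and of the cytokines, with Ccl5 at 2.43.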

How the data were processed

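The 8 libraries, 1 per mouse, hold RNA of CD11b+ cells and were assigned to control (4) or CSF1 OE (4) by the genotype code that follows the animal number in each label. Libraries were made with a kit that does not mark strand. The submitters' processing notes name bcl2fastq 1.8.4, Bowtie 1.0.0, RSEM 1.2.7 and the build mm10, and the annotation and strand setting are not given in the sources used here. The authors deposited expected counts per gene without normalization, which were rounded to whole numbers here. The authors also deposited a table of signal in which each mouse's counts are divided by 1 size factor, which were used in 1 alternative. Columns left unmapped numbered 0.

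The main test, over the 13407 genes that filterByExpr kept, was made with edgeR 4.0.16 in R 4.3.3 (TMM, glmQLFit, glmQLFTest, Benjamini-Hochberg adjustment, two-sided) in place of the study's EBSeq. To be called, a gene needed an adjusted p below 0.05 together with a fold below 0.7 or above 1.43. SEs were taken from the log2 fold change and its F statistic, and log2 CPM used a prior count of 2. The common biological coefficient of variation was 0.228. DESeq2 1.42.0, limma 3.58.1 (pseudocount 1), other filters and scalings, and a fit without each mouse were alternatives.

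Gene positions and exon lengths are from GENCODE M21 on GRCm38. The receptor genes and the lists were chosen with earlier results of these data known, so counts over them are descriptions and no set test was made. By the rule for naming, the text names the 10 receptors, the highest and lowest log2 fold change of each list, and the 3 genes most like each of Tlr2 and Tlr5. Named outside the rule, after their values were seen, are Cd14, Unc93b1, Myd88 and Tnf for their role. So are the T and NK markers Cd3d, Cd3e, Cd3g and Klrb1c, and some of the marker and list genes called by DESeq2 or with the term for animal numbers.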

Additional observations from a re-analysis of the deposited data

Results flagged for a closer look

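In 1 of 52 groups of 4 mice examined, the lowest or highest mouse stood apart by Dixon's criterion, which chance meets in about 1 in 20 groups. The ratio of Tlr2 to Tlr1 in CPM was 4.93 in CSF1 OE mouse 2019, whereas the other CSF1 OE mice were at 7.10 to 7.44. Mouse 2019 had the highest Tlr1 level of all 8 mice, at 91.2 CPM, and a Tlr2 level of 449 CPM, between those of the other CSF1 OE mice.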

How the results depend on the processing

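Tlr2 had adjusted p-values between 9.92e-05 and 0.186 in 16 alternatives, and Tlr5 between 0.000346 and 0.195. Both were called by DESeq2 and with the term for animal numbers, so that 2 receptor genes were called there, and 0 elsewhere. With that term Tlr3 also had an adjusted p under 0.05 in edgeR (0.0350). Its log2 fold change there, 0.504, was just under the limit of 0.515 for a call. Direction reversed for Tlr4 with the term for animal numbers (0.069), for Tlr7 when single mice were left out (-0.060 to 0.21; below 0 without control 1934 or CSF1 OE 1931) and for Tlr9 without control 1934 (-0.0059 to 0.27 over single mice left out). The causes were not tested. Over all genes, edgeR called 59, DESeq2 416, upper-quartile scaling 19, limma on the normalized values 105, the term for animal numbers 1274, and scaling to microglia markers 0 (763 at an unadjusted p under 0.05). Leaving out single mice gave 3 to 164 calls, with 164 without control 1827 and 3 without control 1872 or 1874. Of the calls, 88.1% were higher in CSF1 OE mice in edgeR, 62.3% in DESeq2 and 23.8% with the term for animal numbers. The endosomal median, 0.14, was -0.0059 without control 1934, 0.02 without CSF1 OE 1931, 0.01 without CSF1 OE 2019, 0.27 without CSF1 OE 1932, 0.26 with scaling to microglia markers and 0.43 with the term for animal numbers. The surface median, 0.25, was 0.12 without control 1934, 0.09 without CSF1 OE 2019, 0.37 without control 1874, 0.38 without CSF1 OE 1932 and 0.54 with that term. Each move was less than the SD between mice. The difference of the medians ran from 0.0084 without control 1827 to 0.19 without control 1874. No paired analysis was made because the labels give no pairing of control with CSF1 OE mice. With 4 mice per genotype the 95% interval of the fold was widest on the linear scale for Tlr13, from 0.736 to 1.82, and Tlr8, with as few as 113 counts in a library, had the least depth.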
